A study of Mus musculus with 24 samples.

Results

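Sox1, Pax6, Pax3, Nes, Zic1, Tubb3, Neurog2, Hes5 and Pou3f2 are widely used markers of the neuroectoderm, and these 9 of the 22926 gene symbols in the tables were followed through 24 RNA-seq libraries of mouse embryonic stem cells (ESCs). They were chosen as a list of symbols, with earlier results of these data known, and all 9 were found. Shares of members called, set beside those of all genes, are therefore a description only. Undifferentiated cells gave 12 libraries (D0), and cells grown for 6 days after removal of leukemia inhibitory factor (LIF), the cytokine that holds ESCs in the pluripotent state, gave the other 12 (D6). WT and Tet1-/- were sampled as 3 clones on either day, and Tet2-/-, DKO cells, which lack Tet1 and Tet2 (Tet1-/-:Tet2-/-), and TKO cells, which lack Tet3 besides (Tet1-/-:Tet2-/-:Tet3-/-), as 2 clones. Every clone, WT included, came from 1 parental clone of an ESC line derived from 129/SVj mice, with eGFP at the Pou5f1 (Oct4) locus, and the knockouts carry insertions or deletions made with Cas9. By the study's allele sequences most were short, 1 DKO clone lacked the whole region shown of a Tet1 allele, and where 1 allele alone was read, as in both Tet2-/- clones, a large change of the other could have been missed. By the labels 13 clones were used, of which 11 were sequenced on both days and 2, the Tet1-/- clones numbered replicate 2, on 1 day each. WT clones are named here as in the labels (O4.1, O4.2, O4.13) and knockout clones by replicate number, which marks the same clone on both days except in Tet1-/- replicate 2 and in DKO, where replicate 1 at D0 is replicate 2 at D6 and the reverse. The Tet enzymes oxidise 5-methylcytosine in DNA, and the comparisons ask how their loss bears on the genes that cells express before and after LIF withdrawal.

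The neuroectoderm is the part of the ectoderm that forms the neural plate, and from it the brain, the spinal cord and, at its border, the neural crest. Sox1 is among the earliest transcription factors restricted to the neural plate, Pax6 and Pou3f2 (Brn2) act in forebrain and other neural progenitors, and Zic1 and Pax3 act in the dorsal neural tube and the neural crest. Nes encodes nestin, an intermediate filament of progenitor cells that is also made in muscle and endothelial precursors, and Hes5 is a target of Notch signalling that keeps progenitors from becoming neurons. Neurog2 is a proneural factor that starts neuronal differentiation, and Tubb3 encodes the beta-III tubulin of neurons. In cultures that lose LIF in serum, cells leave pluripotency toward several germ layers at once, so a neural gene can change in part of the cells only.

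For the 4 members that stood higher in Tet2-/- than in WT at D6 (Tubb3, Sox1, Pax6, Hes5), and for Nes, which rose in every genotype, the 250 bases before the RefSeq start are shown, since CpG, the dinucleotide at which the Tet enzymes act, is dense in most of these promoters. The sequences are from RefSeq on GRCm38.p6, all on the plus strand and 5′ to 3′, with each CG in capitals: Tubb3 at chr8:123411303-123411552, Sox1 at chr8:12395269-12395518, Pax6 (the first of its 2 promoters) at chr2:105668646-105668895, Hes5 at chr4:154960673-154960922 and Nes at chr3:87970843-87971092.
Tubb3: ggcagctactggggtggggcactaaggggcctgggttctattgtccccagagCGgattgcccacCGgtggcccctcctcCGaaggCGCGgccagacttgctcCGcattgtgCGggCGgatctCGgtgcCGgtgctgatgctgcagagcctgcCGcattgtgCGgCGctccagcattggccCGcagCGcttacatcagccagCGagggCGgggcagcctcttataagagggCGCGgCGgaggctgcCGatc
Sox1: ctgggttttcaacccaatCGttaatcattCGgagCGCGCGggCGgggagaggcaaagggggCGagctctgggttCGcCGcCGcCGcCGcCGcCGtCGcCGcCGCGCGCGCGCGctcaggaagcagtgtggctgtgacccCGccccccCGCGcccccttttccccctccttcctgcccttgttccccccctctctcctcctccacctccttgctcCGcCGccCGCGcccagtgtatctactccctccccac
Pax6: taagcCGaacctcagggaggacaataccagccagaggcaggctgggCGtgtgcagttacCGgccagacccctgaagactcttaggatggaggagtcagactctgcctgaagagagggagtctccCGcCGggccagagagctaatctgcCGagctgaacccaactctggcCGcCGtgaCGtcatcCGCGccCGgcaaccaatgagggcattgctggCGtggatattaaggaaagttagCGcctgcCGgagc
Hes5: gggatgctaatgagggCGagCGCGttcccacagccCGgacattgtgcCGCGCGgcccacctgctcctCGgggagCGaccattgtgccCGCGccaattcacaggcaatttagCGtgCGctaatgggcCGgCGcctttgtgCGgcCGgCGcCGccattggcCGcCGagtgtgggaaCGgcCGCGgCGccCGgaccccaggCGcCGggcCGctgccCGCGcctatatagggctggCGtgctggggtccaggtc
Nes: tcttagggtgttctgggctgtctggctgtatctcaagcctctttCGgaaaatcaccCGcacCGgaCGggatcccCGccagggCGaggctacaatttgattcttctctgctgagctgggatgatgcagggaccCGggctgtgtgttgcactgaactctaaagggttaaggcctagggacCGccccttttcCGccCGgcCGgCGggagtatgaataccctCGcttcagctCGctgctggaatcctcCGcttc

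Counting also the first 50 bases of the transcript, Hes5 had 41 CpG sites, Sox1 37, Zic1 31, Tubb3 26, Pou3f2 24, Nes 18, Pax6 18 and 16 at its 2 promoters, and Neurog2 10. The median of all 32851 RefSeq promoter windows of this length was 7 sites, the upper quartile 20 and the 90th percentile 31. Hes5 and Sox1 lay above the 90th percentile, Zic1 at it, and Neurog2 nearest to the median. No window of Pax3 was in the table used. The motif of RBPJ, the DNA-binding factor of Notch signalling, was searched as GTGGGAA on both strands and was found at 2 positions in the Hes5 window (226 and 83 bases before the start) and in no other member's window; 6.38% of all promoters hold at least 1. The POU motif ATGCAAA stood once, in the Sox1 window (4.63% of all promoters). E-boxes (CANNTG) were present in 1 Pax6 window, Zic1 and Hes5, a motif that 72.3% of promoters hold. The N-box CACNAG was found in 1 Pax6 window and Neurog2 (42.5% of promoters), and the SOX motif ACAANG in Sox1, 1 Pax6 window, Tubb3 and Hes5 (41.2%). These matches are letters in a window, and no methylation or binding was measured here. The study measured DNA methylation at D0 by reduced representation bisulfite sequencing, which was not used here. It reported no correlation between altered promoter methylation and altered expression in undifferentiated cells.

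In the 24 libraries, 18400463 to 37290208 reads were counted over the symbols. Levels are given as CPM, counts scaled to the library size after TMM normalisation, and a count of 0 allows up to 0.0814 to 0.151 CPM by library, for counting error only. Levels are further given per kb of exon where genes are compared with each other. At D0 in WT, Tubb3 stood at 93.1 CPM per kb, Nes at 1.85, Sox1 at 1.01, and the other members at 0.0941 or less. After 6 days Nes was the highest member in WT (15.3 CPM per kb), before Tubb3 (7.21), Sox1 (0.384) and the rest (0.130 or less). In Tet2-/- at D6 the order was Tubb3 (62.95), Nes (11.1), Sox1 (2.02), Hes5 (0.464), and at most 0.158 for the remaining members. The order between low members is uncertain, because the merged exons of Pax6 span 19833 bases in the mm9 annotation and Sox1 was taken at its RefSeq length (4037 bases). Fewer cells of a type and less RNA per cell cannot be told apart in these bulk samples.

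**Figure D1:**
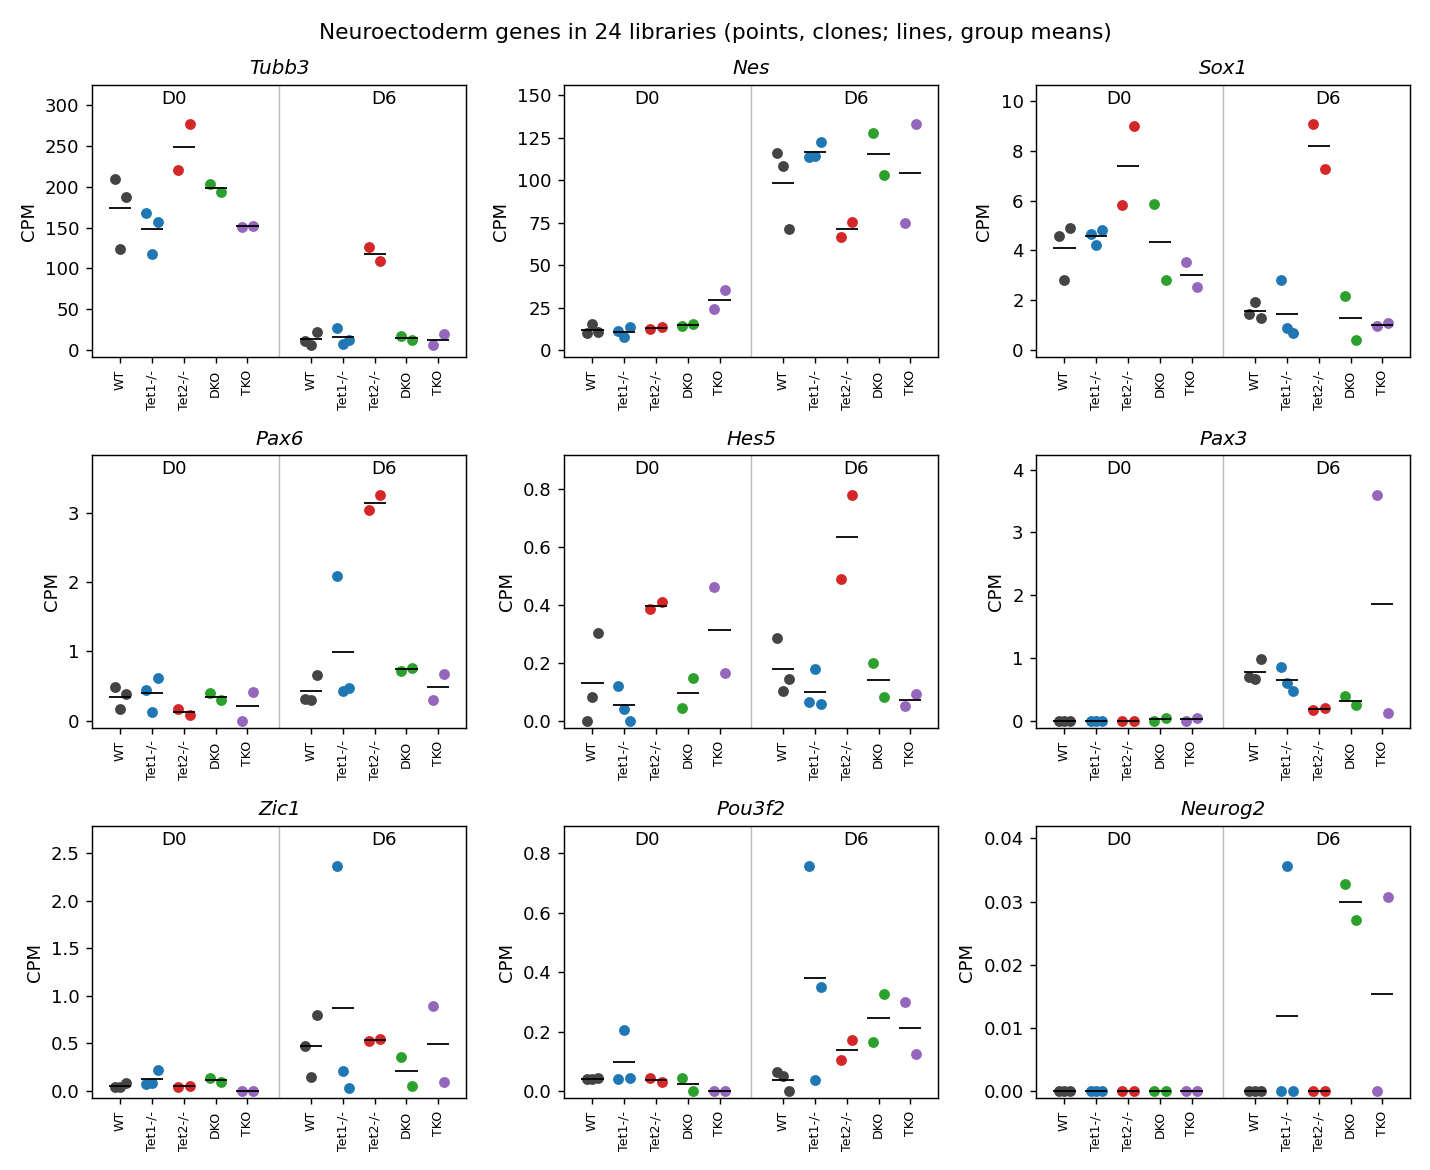
Level of each of the 9 genes in CPM (vertical axes, linear, a scale of its own per gene) in every library, with D0 to the left and D6 to the right of the grey line and the 5 genotypes along the horizontal axis; points are clones and black lines group means. In Tubb3, Sox1, Pax6 and Hes5 both Tet2-/- clones lie above all other D6 libraries, whereas in Nes all D6 libraries lie above all D0 libraries.

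The edited genes were counted first. Tet2 had 87.9 to 93.9 CPM in WT at D0 and 20.9 and 23.2 in the Tet2-/- clones, but at D6 it had 12.3 to 15.97 in WT and 15.9 and 16.6 in Tet2-/-. Tet1 spanned 93.4 to 358 CPM in the Tet1-/- clones at D0, 230 and 373 in DKO and 220 to 431 in WT. In TKO at D0 it stood at 568 CPM in replicate 1, above all WT clones, and at 41.7 in replicate 2, below them. Tet3 had 7.72 and 8.74 CPM in TKO at D6 against 13.3 to 20.98 in WT. Indels leave transcripts that can be counted, so these levels do not check the genotypes.

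Set in order by group mean, Tubb3 was highest in the 5 D0 groups (148 ± 26.8 to 248 ± 39.6 CPM, SD), then in Tet2-/- at D6 (118 ± 12.5, n = 2), with the other 4 D6 groups together at 12.8 to 15.8. Sox1 was highest in Tet2-/- at D6 (8.17 ± 1.26) and at D0 (7.40 ± 2.26), which did not differ beyond their spread, followed by the other D0 groups (3.03 to 4.56) and the other D6 groups (1.01 to 1.55). Pax6 stood apart in Tet2-/- at D6 alone (3.14 ± 0.156, n = 2). Its next groups, from 0.992 ± 0.945 in Tet1-/- at D6 downward, were each within the SD of their neighbour. Nes was highest at D6. It had 98.5 ± 23.9 to 117 ± 5.06 in 4 D6 groups that did not differ from their neighbours beyond the SD, then 70.95 ± 6.46 in Tet2-/- at D6, 29.6 ± 7.84 in TKO at D0 and 10.8 to 14.7 in the other D0 groups. Hes5 was highest in Tet2-/- at D6 (0.633 ± 0.205) and next in Tet2-/- at D0 (0.396 ± 0.0177).

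In WT the 6 days without LIF split the neural genes. Tubb3 and Sox1 fell, while Nes and Pax3 rose. Of the 7 members that could be tested between days, these 4 passed, and 34.0% of all 15639 genes tested did (edgeR, adjusted p under 0.05 and over 2-fold, the criteria throughout). Tubb3, the neuronal tubulin, stood at 210 (clone O4.1), 124 (O4.2) and 187 CPM (O4.13) at D0 and at 6.86, 22.6 and 10.9 in the same clones at D6. The lowest D0 clone was thus well above the highest D6 clone. It fell by 3.68 on the log2 scale (standard error, SE, 0.453; adjusted p = 1.24e-06, edgeR). Sox1, the neural plate factor, had 4.56, 2.80 and 4.88 CPM in these clones at D0 and 1.92, 1.31 and 1.43 at D6, again without overlap. Sox1 fell by 1.40 on the log2 scale (SE 0.491, adjusted p = 0.0172, edgeR). Its call was lost without D0 or D6 clone O4.13 (adjusted p = 0.0554 and 0.0567, edgeR) or D6 clone O4.2 (0.0522).

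Nes, the progenitor filament, went the other way in every genotype. In WT it had 9.98 (O4.1), 15.1 (O4.2) and 10.6 CPM (O4.13) at D0 and 109, 71.2 and 116 at D6, so that all D6 clones lay far above all D0 clones. The rise was 3.05 on the log2 scale (SE 0.251, adjusted p = 9.71e-09, edgeR). Pax3, the factor of the dorsal neural tube and crest, was not counted once in WT at D0 and had 13, 27 and 22 counts (O4.1, O4.2, O4.13) at D6, at least 18.9-fold higher with the D0 group set at 3 counts (adjusted p = 0.00169, edgeR). Zic1, a dorsal factor too, had 4 counts in all WT libraries at D0 and 40 at D6, 9.16 times higher for the depth (95% counting interval 3.31 to 35.3). That interval covers counting error only and leaves out the spread between clones. Zic1 was not called at D6 in WT (adjusted p = 0.0577, edgeR), but with the clone as a block, which pairs the days, it was (adjusted p = 0.00736). Pax6 (25 counts at D0, 34 at D6) and Hes5 (9 and 15) were not called (adjusted p = 0.734 and 0.561, edgeR). Pou3f2 had 3 counts in WT at each day, and Neurog2 had 0 at both.

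**Figure D2:**
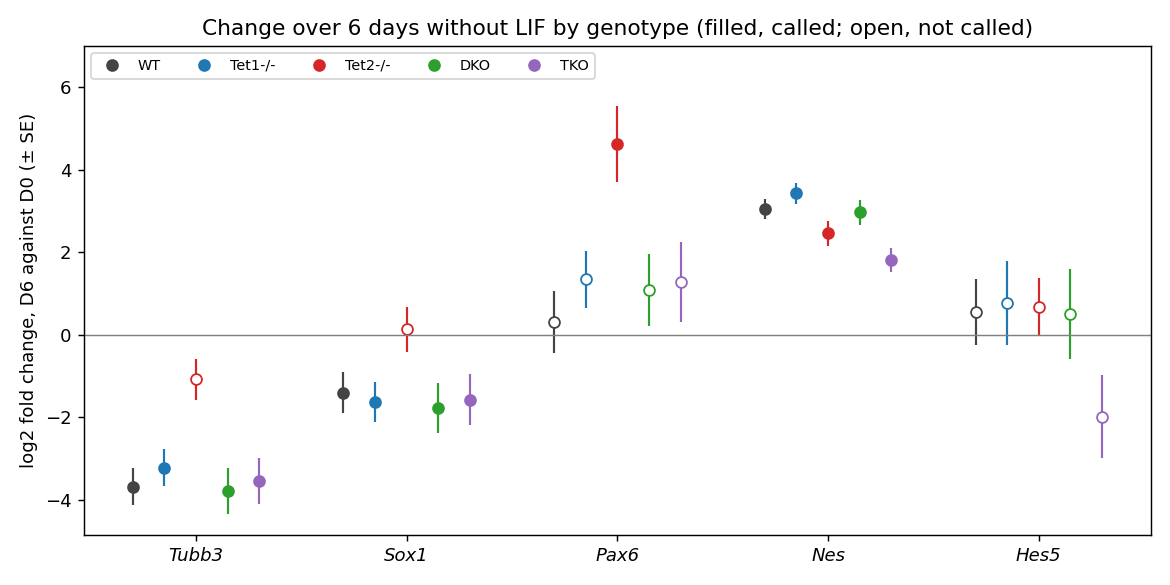
Change from D0 to D6 on the log2 scale (vertical axis, ± standard error of the fit) of the 5 tested genes with counts in every group, for the 5 genotypes (colours); filled points were called and open points were not. Nes was called higher in all genotypes, Tubb3 and Sox1 were called lower in all but Tet2-/-, and among the points of Pax6 the filled one is that of Tet2-/-.

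Tet1-/-, DKO and TKO cells were called in the same direction as WT for Tubb3, Sox1 and Nes over the 6 days. Of the 7 members tested, 5 were called in Tet1-/- (31.1% of all genes tested), 3 in DKO (29.2%) and 4 in TKO (25.4%). Tubb3 fell from 118 to 168 CPM at D0 to 7.93 to 26.6 at D6 in Tet1-/-, by 3.22 on the log2 scale (SE 0.442, adjusted p = 5.3e-06, edgeR). In DKO it fell from 193 and 204 CPM to 11.8 and 16.9, and in TKO from 151 and 152 to 5.89 and 19.7. The log2 fold changes were -3.79 and -3.54 (adjusted p = 1.73e-05 and 4.57e-05, edgeR). Sox1 was called lower in Tet1-/- (log2 fold change -1.63, adjusted p = 0.00679, edgeR), in DKO (-1.78, adjusted p = 0.0177) and in TKO (-1.57, adjusted p = 0.0444). Those in DKO and TKO depended on single libraries. Without DKO replicate 1 at D0 or DKO replicate 1 at D6 the Sox1 change was -1.12 and -1.001 (adjusted p = 0.216 and 0.200, edgeR). In TKO the call was lost in 14 of the 24 fits that left out 1 library, with adjusted p up to 0.166 (edgeR) without TKO replicate 1 at D0. Pax6 was not called between days in Tet1-/- (1.34, adjusted p = 0.0926, edgeR) or TKO (1.28, 0.285). Leaving out D6 Tet1-/- replicate 2 or 1 gave a call in Tet1-/- (1.74 and 1.73, adjusted p = 0.0383 and 0.0442, edgeR), and leaving out replicate 3 gave 0.20. In TKO, Pax6 was called without D0 replicate 2 (adjusted p = 0.0271, edgeR), which held all 10 of its D0 counts there.

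Nes rose by 3.43 on the log2 scale in Tet1-/- (SE 0.255), 2.97 in DKO (0.305) and 1.81 in TKO (0.289), with adjusted p of 3.19e-09, 3.55e-07 and 5.54e-05 (edgeR). Undifferentiated TKO cells had more Nes to begin with. TKO replicates 1 and 2 stood at 24.1 and 35.2 CPM at D0, above the 7.46 to 15.2 CPM of the other 10 D0 libraries. Their log2 fold change over WT was 1.31 (SE 0.246, adjusted p = 0.0103, edgeR), the 1 call among the 4 members tested at D0 in TKO, where 1.03% of all 14456 genes were called higher and 3.15% in either direction. At D6 these clones had 133 and 75.02 CPM, and the other 10 D6 libraries 66.4 to 127. The effect of TKO on Nes at D6 less that at D0 was -1.23 (SE 0.368, adjusted p = 0.0530, edgeR), which missed the threshold.

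No member was called at D0 in the other knockouts by edgeR or DESeq2, 0 of 4 tested in Tet1-/- (0.00692% of all genes), in Tet2-/- (3.19%) and in DKO (0.0346%). At an unadjusted p under 0.05 there were 0 in Tet1-/- and DKO and 2 in Tet2-/-. In Tet2-/- these were Sox1, with 5.80 and 8.997 CPM in replicates 1 and 2 against 2.80 to 4.88 in WT (log2 fold change 0.84, adjusted p = 0.0975, edgeR), and Tubb3, with 221 and 276 CPM against 124 to 210 in WT (0.50, adjusted p = 0.118). Both Tet2-/- clones were above all WT clones in both genes. The other 5 members had too few counts at D0 to be tested. Hes5, for example, had 9 and 14 counts in Tet2-/- and 0, 2 and 7 in WT.

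At D6, Tet2-/- cells differed from WT in 4 of the 8 members tested (Neurog2 had too few counts), all higher, against 4.81% of the 15435 genes tested that were called higher and 14.3% called in either direction. Tubb3, Sox1, Pax6 and Hes5 stood above WT in both Tet2-/- clones, whereas the progenitor filament gene Nes and the dorsal factors Pax3 and Zic1 did not pass the test. Tubb3 had 109 and 126 CPM in Tet2-/- replicates 1 and 2, against 6.86 to 22.6 in WT and 5.89 to 26.6 in the other knockouts. The 2 clones stood far above all other D6 libraries, next to the lowest D0 library of any genotype (118 CPM). Tubb3 was 8.57-fold higher than in WT (SE 0.599 on the log2 scale, adjusted p = 0.00716, edgeR). Sox1 had 7.28 and 9.07 CPM in Tet2-/- against 1.31 to 1.92 in WT, a log2 fold change of 2.39 (SE 0.626, adjusted p = 0.0195, edgeR). The 2 Tet2-/- libraries were the highest of all D6 libraries in Sox1, followed by Tet1-/- replicate 3 at 2.81 CPM.

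Pax6, which acts in forebrain and eye progenitors, had 3.25 and 3.03 CPM in Tet2-/- and 0.303 to 0.653 in WT, 113 and 87 counts against 6 to 18. Among the other D6 libraries Tet1-/- replicate 3 came nearest, at 2.08 CPM, and the rest had at most 0.760. The log2 fold change against WT was 2.84 (SE 0.647, adjusted p = 0.0120, edgeR). Hes5, the Notch target with both RBPJ motifs in its promoter window shown above, had 0.777 and 0.488 CPM in Tet2-/-, 27 and 14 counts, and 0.101 to 0.286 CPM in WT, 2 to 9 counts. Its log2 fold change was 1.74 (SE 0.561, adjusted p = 0.0404, edgeR). This call of Hes5 was near the threshold. It was lost with DESeq2 (adjusted p = 0.101) and with no filter on low counts (0.0528, edgeR), as well as without WT clone O4.1 (0.1003), WT clone O4.2 (0.0782), DKO replicate 2 (0.0504) or DKO replicate 1 (0.0520).

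With Tet2-/- replicate 1 or 2 left out, the arm held 1 library, which was taken to vary like the clones of the other groups, so the lost calls do not show that a result rests on 1 clone. Then 0 members were called by edgeR, at changes of 3.21 and 2.99 for Tubb3 on the log2 scale (adjusted p = 0.0509 and 0.0740), 2.53 and 2.22 for Sox1 (0.0780 and 0.119), 2.79 and 2.90 for Pax6 (0.0695 and 0.0791), and 1.36 and 2.03 for Hes5 (0.243 and 0.110). Over all genes 304 and 0 were then called. The Sox1 call was also lost without WT clone O4.13 (2.34, adjusted p = 0.0656, edgeR).

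**Figure D3:**
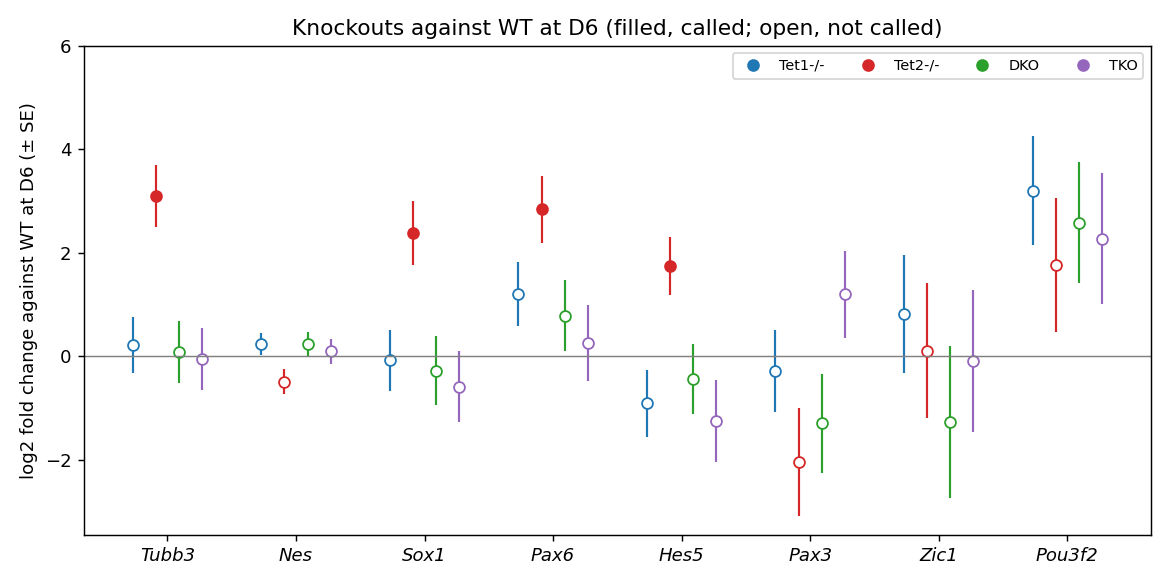
Log2 fold change of each of the 8 tested members against WT at D6 (vertical axis, ± standard error of the fit) in the 4 knockouts (colours); filled points were called and open points were not. The 4 filled points, from 8.57-fold for Tubb3 to 3.34-fold for Hes5, all belong to Tet2-/-.

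The other 4 tested members gave no call in Tet2-/-. Nes had 75.5 and 66.4 CPM, on either side of the lowest WT clone (71.2 to 116 in WT), with a log2 fold change of -0.49 (SE 0.245, adjusted p = 0.151, edgeR). Pax3 had 7 and 5 counts, 0.202 and 0.174 CPM, below the 0.655 to 0.980 CPM of all WT clones, but with a log2 fold change of -2.04 (SE 1.04) its adjusted p was 0.155 (edgeR). In the TKO clones, which the fit also holds, Pax3 had 0.123 and 3.59 CPM (replicates 1 and 2). Without either of these libraries the change in Tet2-/- was -2.04 and was called (adjusted p = 0.0106 and 0.0116, edgeR). Zic1 (0.547 and 0.523 CPM, against 0.151 to 0.798 in WT) and Pou3f2 (0.173 and 0.105, against 0 to 0.0637) overlapped WT or held few counts. Their adjusted p were 0.957 and 0.316 (edgeR).

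In Tet1-/-, DKO and TKO no member of the 8 tested was called against WT at D6 by edgeR or DESeq2, and edgeR called 0% of all genes in each. At an unadjusted p under 0.05, Pou3f2 passed in Tet1-/- and in DKO (1 member each), and 0 members did in TKO. Pou3f2, a POU factor of neural progenitors, had 12, 1 and 24 counts in Tet1-/- replicates 1, 2 and 3, and 12 and 5 in DKO replicates 1 and 2, against 0 to 2 in WT. Per depth that was 10.3 times the WT level in Tet1-/- (95% counting interval 3.27 to 52.3) and 6.64 times in DKO (1.92 to 35.3), with WT at 3 counts in all. Both intervals cover counting error only and leave out the spread between clones. Of the 37 counts in Tet1-/-, replicate 3 gave 24. The adjusted p were 0.331 and 0.342 (edgeR).

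Single clones stood apart at D6. Tet1-/- replicate 3 was the highest of the 3 Tet1-/- clones in Tubb3 (26.6 CPM against 12.9 and 7.93), Sox1 (2.81 against 0.696 and 0.892), Pax6 (2.08 against 0.464 and 0.428), Zic1 (2.37 against 0.0290 and 0.214), Pax3 and Pou3f2, but not in Hes5 or Nes. The call of Zic1 in Tet1-/- between days (82 counts at D6, 9 at D0; log2 fold change 2.75, adjusted p = 0.0391, edgeR) depended on this library: without it the change was -0.12 (adjusted p = 0.929). It was also lost without any 1 of the D0 Tet1-/- libraries (2.51, 2.53 and 3.36, adjusted p = 0.110, 0.107 and 0.0533, edgeR). TKO replicate 2 had 72 of the 76 Pax3 counts of TKO at D6. Pax3 was called between days in TKO (adjusted p = 0.00330, edgeR), and without this library it was not (adjusted p = 0.148). Against WT at D6, Pax3 in TKO was called higher without replicate 1 (log2 fold change 2.19, adjusted p = 0.0252, edgeR), and without replicate 2 the change was -2.61.

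The difference between Tet2-/- and each other knockout at D6 was tested directly. Against Tet1-/-, 3 of 8 members were called, all higher in Tet2-/- (Sox1, Tubb3, Hes5; 1.87% of all genes higher, 6.36% in either direction). Against DKO these 3 were called too (of 8; 3.13% of all genes higher, 9.50% in either direction), and against TKO Pax6 as well (4 of 8; 2.63% and 8.64%). Tubb3 was higher by log2 fold changes of 2.88 (SE 0.594, adjusted p = 0.0182, edgeR), 3.02 (0.694, adjusted p = 0.0180) and 3.15 (0.700, adjusted p = 0.0188). Sox1 was higher by 2.46, 2.66 and 2.97 (adjusted p = 0.0338, 0.0329 and 0.0275, edgeR), and Hes5 by 2.65, 2.18 and 2.98 (adjusted p = 0.0231, 0.0436 and 0.0262, edgeR). Pax6 gave 1.65 against Tet1-/- (adjusted p = 0.102, edgeR), 2.06 against DKO (0.0681) and 2.59 against TKO (0.0401). Without Tet1-/- replicate 3, the change of Pax6 against Tet1-/- was 2.79 and was called (adjusted p = 0.00519, edgeR). Pax6 was also called against DKO, at an unchanged 2.06, without Tet1-/- replicate 3 or 2 (adjusted p = 0.0112 and 0.0456, edgeR), clones outside that comparison that share the fit. Pax3 lay the other way and was not called against Tet1-/- (-1.75, adjusted p = 0.287, edgeR), DKO (-0.75, 0.689) or TKO (-3.24, 0.0648). Against Tet1-/- it was called lower without TKO replicate 1 or 2, also outside the comparison (-1.75 in both, adjusted p = 0.0348 and 0.0380, edgeR). Against TKO, Pax3 was called lower without TKO replicate 1 (-4.24, adjusted p = 0.00198, edgeR) and gave 0.56 without replicate 2 (0.714). These comparisons share the Tet2-/- libraries, and with either Tet2-/- clone left out, which leaves an arm of 1 library whose spread is taken from the other groups, edgeR called 0 members in each. It also called 0 without Tet1-/- replicate 1, and, again with an arm of 1 library, without DKO replicate 1 or TKO replicate 2 in the comparison with that knockout. Over all fits that left out 1 library, the log2 fold change of Tubb3 was 2.56 to 3.47 against Tet1-/-, 2.78 to 3.31 against DKO and 2.54 to 4.30 against TKO. Against DKO without DKO replicate 2, Sox1 alone was called, and Tubb3 and Hes5 were not (adjusted p = 0.0842 and 0.0972, edgeR). The Pax6 call against TKO was lost without DKO replicate 1 or 2 (0.0605 and 0.0601, edgeR) or WT clone O4.13 (0.0562), and those of Sox1 and Hes5 against TKO without TKO replicate 1 (0.0609 and 0.0509). Sox1 against Tet1-/- was not called without Tet1-/- replicate 2 (0.0883, edgeR) or WT clone O4.13 (0.0516), nor Hes5 against DKO without Tet1-/- replicate 1 (0.0545). With all libraries kept, Hes5 against DKO was not called by DESeq2 (adjusted p = 0.0964) or by edgeR with no filter on low counts (0.0551) or with the replicate number as a block (0.0741), nor against TKO with that block (0.0502), and against Tet1-/- DESeq2 gave it no adjusted p.

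Between the days in Tet2-/- cells, Pax6 and Nes rose, and neither Tubb3 nor Sox1 was called. These were 2 of the 7 members tested, both higher (12.7% of all genes higher, 19.1% in either direction). Pax6 went from 4 and 3 counts at D0 (0.171 and 0.0876 CPM in replicates 1 and 2) to 113 and 87 (3.25 and 3.03 CPM), with a log2 fold change of 4.62 (SE 0.929, adjusted p = 0.000707, edgeR). Nes went from 12.5 and 13.3 CPM to 75.5 and 66.4 (2.46, SE 0.299, adjusted p = 4.79e-06, edgeR). Tubb3 was lower in both clones at D6 (109 and 126 CPM, from 221 and 276), but the log2 fold change of -1.08 missed the threshold (SE 0.496, adjusted p = 0.0909, edgeR). Sox1 went from 5.80 to 7.28 CPM in replicate 1 and from 8.997 to 9.07 in replicate 2 (0.14, SE 0.545, adjusted p = 0.859, edgeR). With the clone as a block, Pax3 (0 counts at D0, 12 at D6) and Zic1 (3 and 34 counts) were also called (adjusted p = 0.0229 and 0.0143, edgeR), 4 members in all. In DKO and TKO the block further added Pax3 (1 and 21 counts in DKO, adjusted p = 0.0217, edgeR) and Zic1 (0 and 21 counts in TKO, adjusted p = 0.00612, edgeR).

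The effect of Tet2 loss differed between D6 and D0 for 2 of the 7 members tested, both in the higher direction (3.54% of all genes, 8.68% in either direction). The difference of effects was 4.32 on the log2 scale for Pax6 (SE 1.22, adjusted p = 0.0245, edgeR) and 2.60 for Tubb3 (SE 0.653, adjusted p = 0.0143, edgeR). For Sox1 it was 1.54 (SE 0.733, adjusted p = 0.151, edgeR) and for Nes -0.59 (0.371, adjusted p = 0.276). The Tubb3 call was lost without Tet2-/- replicate 1 at D0 (adjusted p = 0.0835, edgeR) or replicate 2 at D6 (0.0537), and that of Pax6 without any of 7 libraries, at changes of 3.86 to 4.802 and adjusted p up to 0.105. In Tet1-/- and DKO, edgeR and DESeq2 called 0 members and edgeR 0% of all genes for this difference, with 0 members at an unadjusted p under 0.05. In TKO edgeR called 0 members (3.58% of all genes), and Nes alone had an unadjusted p under 0.05 and was called by DESeq2 (-1.24, adjusted p = 0.0212).

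Across libraries, the genes most like each member in log2 CPM were picked by Pearson's r over all 24 libraries, which share days, genotypes and clones, so r is a description only. Tubb3 was most like Dlgap3 (0.982), Sema4a (0.979) and Zfp428 (0.978), and Nes most like Ogfr (0.980), Fam135a (0.977) and Tpm2 (0.975). Within the 12 D6 libraries the former stayed at 0.966 to 0.969, whereas those of Nes were 0.477 to 0.664. Sox1 was most like Cacng8 (0.927), Pax6 like Slc17a6 (0.904), Pax3 like Fli1 (0.957), Hes5 like Caskin1 (0.838) and Zic1 like Ptn (0.756). Among the members, at D6, Tubb3 with Pax6 had 0.938, Tubb3 with Sox1 0.872 and Sox1 with Hes5 0.818 over the 12 libraries, in which both Tet2-/- clones were the highest for each of these genes. Over all 24 libraries these pairs had -0.0733, 0.841 and 0.478. Other pairs were negative: Tubb3 with Nes had -0.861 over 24 libraries and -0.506 at D6. Tubb3 with Pax3 had -0.768 and -0.515, and Sox1 with Nes -0.649 and -0.515.

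Other genes of neural development were read from lists, each described by its counts beside those of all genes. Like the members, the lists were chosen with earlier results of these data known. In Tet2-/- at D6 against WT (4.81% of all genes higher, 9.45% lower), neuronal differentiation genes had 6 of 23 tested higher and 0 lower, with a median log2 fold change of 0.48 beside -0.03 over all genes. Among them were Ina, a neuronal intermediate filament (114 CPM in Tet2-/-, 21.1 in WT; log2 fold change 2.41, adjusted p = 0.0106, edgeR), and Elavl3, a neuronal RNA-binding protein (12.1 and 2.60 CPM; 2.18, adjusted p = 0.00988). Dcx and Map2, of migrating and mature neurons, gave -0.27 and 0.12 (adjusted p = 0.723 and 0.696, edgeR). The 24 neuronal differentiation genes summed to 1007 and 1022 CPM in the Tet2-/- clones at D6 and 548 to 662 in WT. At D0 these sums were already 1091 and 1119 CPM in Tet2-/- and 1036 to 1066 in WT. Among the other knockouts at D6, DKO had 897 and 906 CPM, Tet1-/- 603 to 1051 and TKO 463 and 815. Of 7 proneural factors tested from 15, Neurog3 and Ebf1 were higher (2.08 and 1.83, adjusted p = 0.00561 and 0.0145, edgeR) and Bhlhe22 was lower (-3.01, adjusted p = 0.00599).

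Regulators of the neural plate and forebrain had 1 of 16 higher and 3 lower. Pou3f1 (Oct6), of the epiblast and neural plate, was higher (150 and 62.7 CPM in Tet2-/- and WT; 1.23, adjusted p = 0.0316, edgeR), while Sox21 and Emx2 were lower (-3.81 and -3.70, adjusted p = 0.00474 and 0.0211). Patterning genes of the mid-hindbrain and spinal cord had 1 of 16 higher and 6 lower: Gbx2 was higher (14.7 and 1.85 CPM; 2.97, adjusted p = 0.00414, edgeR), and Lhx1, which also marks early mesoderm and endoderm, was lower (1.18 and 120 CPM; -6.63, adjusted p = 0.00426). Neural crest and border genes had 2 of 13 higher (Foxd3 by 3.112 and Ngfr by 2.28, adjusted p = 0.0169 and 0.00640, edgeR) and 6 lower, led by Msx2 and Msx1 (-5.29 and -4.10, adjusted p = 0.00589 and 0.0104).

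Of the Notch pathway, to which Hes5 belongs, 2 of 19 were higher (the receptor Notch4 by 1.97 and Dtx1 by 1.88, adjusted p = 0.00605 and 0.00505, edgeR) and 2 lower (the ligand Dll3 by a log2 fold change of -1.48 and the target Hey2 by -1.995, adjusted p = 0.0238 and 0.0294). Hes1, another target, gave -0.90 with an adjusted p of 0.0367 (edgeR), under the 2-fold limit. Signals of neural induction had 2 of 16 higher (Lefty2 by 2.38 and Lefty1 by 1.91, adjusted p = 0.00410 and 0.0257, edgeR) and 7 lower (Dkk1 and Cer1 by log2 fold changes of -5.85, adjusted p = 0.00614 and 0.00551), and genes of neural progenitors and glia 1 of 12 higher (Ptprz1) and 2 lower (Hmga2 and Aldh1l1). At D0 the 16 induction signals already summed to 690 and 770 CPM in Tet2-/- and 296 to 537 in WT. In WT from D0 to D6 (20.7% of all genes higher, 13.3% lower) all 8 neural lists had more genes higher than lower. Neuronal differentiation genes were split like the members, with 8 of 23 higher and 7 lower; Mapt and Stmn3, of neuronal microtubules, fell by 3.71 and 3.20 on the log2 scale (adjusted p = 2.24e-07 and 3.72e-09, edgeR).

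**Figure D4:**
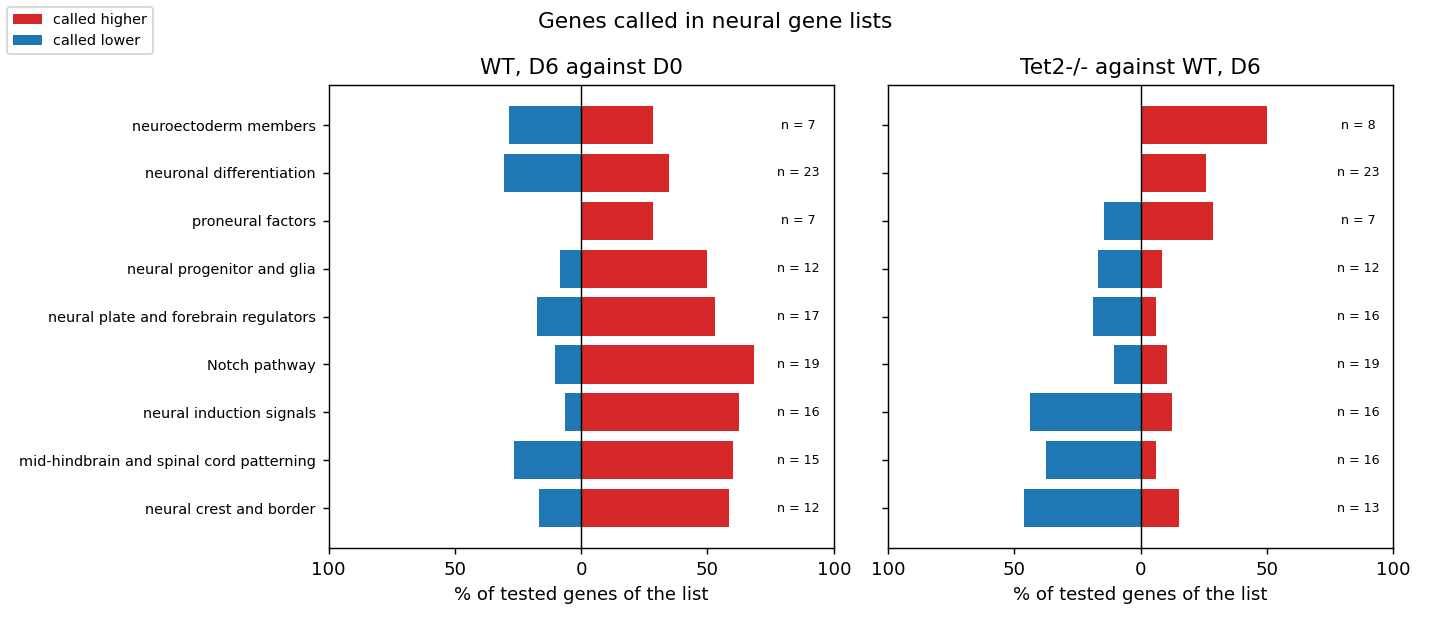
Share of the tested genes of each neural list that were called higher (red, to the right) or lower (blue, to the left), as a percent of the list (horizontal axis), in WT from D0 to D6 and in Tet2-/- against WT at D6; n is the number of genes tested. In Tet2-/-, neuronal differentiation had 6 of 23 genes higher and 0 lower, whereas neural crest and border had 2 of 13 higher and 6 lower.

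Markers of other cell types moved beside these results, and their part in them was not tested. At D6 the summed level of 10 pluripotency markers was 1801 and 1967 CPM in the Tet2-/- clones and 732 to 1434 in WT, with 4954 to 4971 in WT at D0. In Tet2-/- against WT at D6, 2 of 10 were called higher and 1 lower. The TKO clones had 1500 and 1564 CPM at D6, also above all WT clones, Tet1-/- 837 to 1369 and DKO 1075 and 1115. The 12 mesoderm and streak markers summed to 70.0 and 106 CPM in Tet2-/- and 290 to 953 in WT (0 higher, 9 lower), and the 9 endoderm markers to 11.4 and 12.3 against 59.8 to 277 (0 of 7 tested higher, 6 lower). Trophectoderm markers summed to 134 and 137 CPM in Tet2-/- and 672 to 1510 in WT (0 of 8 higher, 7 lower), and those of paraxial mesoderm and muscle to 158 and 176 against 277 to 427 (1 of 9 tested higher, 4 lower). Hand2 of mesoderm, Ttr of endoderm and Elf5 of trophectoderm were at 0 counts in both Tet2-/- libraries. The 7 endothelium markers summed to 55.5 and 62.8 CPM in Tet2-/- and to 16.0 to 62.8 in WT.

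Some members share their locus with other genes, and the sources used here do not say whether counting used strand. In the mm9 annotation (GENCODE vM1), Tubb3 lies on chromosome 8 (125935324 to 125945915, plus strand), and Gm20388 overlaps it on the same strand without shared exons. Pax6 (chromosome 2, 105509053 to 105543317, plus) shares exon sequence with Elp4 on the opposite strand, Hes5 (chromosome 4, 154335032 to 154336480, plus) with RP24-89N4.5, and Zic1 (chromosome 9, 91252896 to 91260648, minus) with Zic4. Reads of these pairs cannot be told apart where they overlap. Nes (chromosome 3, 87775000 to 87784373, plus), Pax3 (chromosome 1, 78097842 to 78193709, minus), Neurog2 and Pou3f2 overlap no other annotated gene, and Sox1 was not matched in that annotation.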

How the data were processed

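Poly(A) RNA of 24 libraries was sequenced by the authors with NEBNext kits and mapped to mm9 with STAR 2.5.1, per the labels. The deposited values are raw read counts per transcript line, named by symbol, without normalization or pooling; each table has 31928 lines for 22926 symbols, and the first of several lines (4911 symbols) was used. The study's methods normalized with ERCC spike-ins; ERCC lines in the tables used numbered 0, so changes between days rest here on TMM, another scaling. The sources used here leave the counting program and its strand setting unclear. Columns outside the 24 samples numbered 0, and no comparison columns of the authors were used. The D6 DKO library whose clone name lacks its point was read as the clone with these digits at D0.

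In R 4.3.3, edgeR 4.0.16 scaled libraries by TMM (factors 0.918 to 1.10 over all libraries), filtered with filterByExpr (minimum count 10) and fitted quasi-likelihood models, in which each group had a coefficient, to D0 (14456 genes, 4 members), D6 (15435, 8 members) and all libraries (15639, 7 members). Calls needed a Benjamini-Hochberg adjusted p under 0.05, over all genes, and a change over 2-fold. CPM came from the fit of all libraries. Likeness used log2(CPM + 1). The block by clone follows the labels, which give the same clone at both days (11 pairs; correlation of deviations 0.0813 to 0.193, over 0.1 in 10). Clones are the replicates; they share 1 parental line, and p-values measure the spread between them. Between 2 clones of a group, counts varied 8.02 to 97.6 times as much as by sampling (mean over genes, range over the 18 pairs of clones). The labels name no batch of preparation, so day and batch cannot be told apart. Alternatives were RLE scaling, library totals, no filter, DESeq2 1.42.0, the line with the highest total, replicate blocks and each library left out (a group left with 1 clone was taken to vary like the other groups). Named genes were the members, the Tet genes, up to 2 called genes per list and direction with the largest change, and the 3 genes most like each member; list genes named beyond this (Dcx, Map2, Hes1) were chosen after their values were seen. The members and lists were chosen with earlier results of these data known.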

Additional observations from a re-analysis of the deposited data

Results flagged for a closer look

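The effect of Tet2 loss differed between the days for 2 members by the test of that difference (edgeR, D6 effect less D0 effect). Pax6 differed by 4.32 on the log2 scale: at D0 Tet2-/- and WT overlapped and did not pass the test (0.129 ± 0.0587 CPM, n = 2, and 0.346 ± 0.164, n = 3; adjusted p = 0.319, edgeR), and at D6 Tet2-/- was higher (3.14 ± 0.156 and 0.425 ± 0.198). Tubb3 differed by 2.60: it was 248 ± 39.6 CPM in Tet2-/- and 174 ± 44.5 in WT at D0, and 118 ± 12.5 and 13.5 ± 8.18 at D6. Dixon's test of a single clone within its group was not run on groups of 2 or 3.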

How the results depend on the processing

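Tubb3, Sox1 and Pax6 stayed called in Tet2-/- against WT at D6 under the 6 alternatives that kept all libraries, and Hes5 under 3 of them. Blocking by the replicate number, which the samples share only as a number (correlations -0.377 to 0.312 at D6, over 0.1 in 7 of 21 pairs), gave 3 members, with Hes5 at an adjusted p of 0.0703 (edgeR). Counts of members that moved were 4 in place of 2 between days in Tet2-/- with the replicate block by clone, and 1 (Nes) in place of 0 for the difference of effects in TKO with no filter on low counts or with DESeq2; the other 117 counts stayed within 1.5 times. With 1 library left out, the count was 0 to 5 in Tet2-/- against WT at D6, 0 to 4 against each of Tet1-/-, DKO and TKO, 0 to 2 for the difference of effects in Tet2-/- and 0 to 1 in TKO, 1 to 2 in TKO at D0, 0 to 1 in TKO at D6 and 2 to 6 between days in TKO. The change of Zic1 in Tet1-/- between days was -0.12 to 3.37, and reversed without D6 replicate 3. Sox1 in TKO between days was not called with library totals (adjusted p = 0.0718, edgeR). Pax6 in Tet2-/- against DKO was called by DESeq2 (adjusted p = 0.0351), and Pax3 against TKO too (0.0151). Low counts limit Pax3, Zic1, Hes5, Pou3f2 and Neurog2, and 2 clones a day limit the comparisons with Tet2-/-, DKO or TKO.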
